A study of Sus scrofa with 6 samples.

Results

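The Notch receptors NOTCH1, NOTCH2, NOTCH3 and NOTCH4, the ligands JAG1 and DLL4, and the target genes HEY1, HEY2, HEYL and HES1 were examined in the abdominal aorta of male Wuzhishan miniature pigs. They were chosen by symbol, and 9 of these 10 genes were found among the 30477 genes listed, while NOTCH1 was not analysed here. The NC group (3 pigs) was fed normal chow and the HFCF group (3 pigs) a diet high in fat, cholesterol and fructose, both for 6 months, and 1 RNA-Seq library was made from each pig. No transgene or drug was used in either group, and the labels give an age of 3 to 4 months for all pigs, while the methods state an older age at purchase. Whether same-numbered pigs of the 2 groups were related is not stated.

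Notch receptors are single-pass membrane proteins that bind ligands of the Jagged and Delta-like families on a neighbouring cell. Binding lets a metalloproteinase and then the gamma-secretase complex cut the receptor, and the freed intracellular part joins the DNA-binding protein RBPJ and its Mastermind coactivators to switch on repressors of the HEY and HES families. In arteries, NOTCH2 and NOTCH3 are known from smooth muscle, NOTCH4 and DLL4 mainly from endothelium, and JAG1 from both.

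Levels were measured as FPKM (fragments per kilobase of exon, scaled to the mapped fragments of the library), which divides by gene length and by library size, so levels of different genes can be set side by side within a pig. The read depth of each library is not stated. Steps between the lowest FPKM values gave relative depths of 1 to 1.37, with NC pig 1 set to 1 and NC pig 3 highest, but only 39 to 131 of 1277 to 2098 genes per library supported each estimate. FPKM values summed to between 272207 and 287141 in the NC pigs and between 330222 and 338690 in the HFCF pigs, and the tested genes, 15384 in all, had a median log2 fold change of 0.32. This median lay between -0.06 and 0.09 after 3 other scalings (median-ratio, quantile and TPM). HFCF pig 1 stood apart, with 1282 FPKM summed over 9 macrophage markers and 2897 FPKM over 3 red blood cell markers, against 535 to 557 and 86.5 to 95.5 FPKM in the other HFCF pigs. NC pig 3 had 36.9 FPKM summed over 5 adipocyte markers, against 181 and 284 FPKM in the other NC pigs.

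Among the 9 genes, the receptor NOTCH2 and the target HEYL fell in the HFCF group, and 0 genes rose, at an adjusted p under 0.05 in limma (Benjamini-Hochberg adjustment over all tested genes; without adjustment the same threshold also called 2 genes lower and 0 higher). The other 7 genes did not pass the test. All 9 genes passed the filter of a mean of at least 0.1 FPKM. Over all tested genes, 28.9% were called by this rule, 6.16% as lower and 22.8% as higher in the HFCF group. Of these calls 78.7% were higher in the HFCF group, a share that was 50.8% with median-ratio scaling, 50.1% with quantile normalization and 59.3% with TPM values. The median log2 fold change of the 9 genes was -0.37, against 0.32 over all tested genes. NOTCH2 and HEYL were also the only 2 of the 9 genes whose groups did not overlap, while 48.2% of all tested genes did not overlap, 12.1% with the HFCF group lower and 36.1% with it higher. The thresholds of the study are a ratio of mean FPKM above 2 or below 0.5 with a p under 0.05. They were applied here to the unadjusted p from limma and to the filtered genes, so the counts are not those of the study. By these thresholds only HEYL of the 9 genes was called, against 25.5% of all tested genes, and 4.82% with the ratio below 0.5. In whole tissue, fewer cells of a type and less RNA per cell cannot be told apart. Both calls were made at replicate level with 3 pigs per group, and the plot of FPKM in each pig shows the values.

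**Figure D1:**
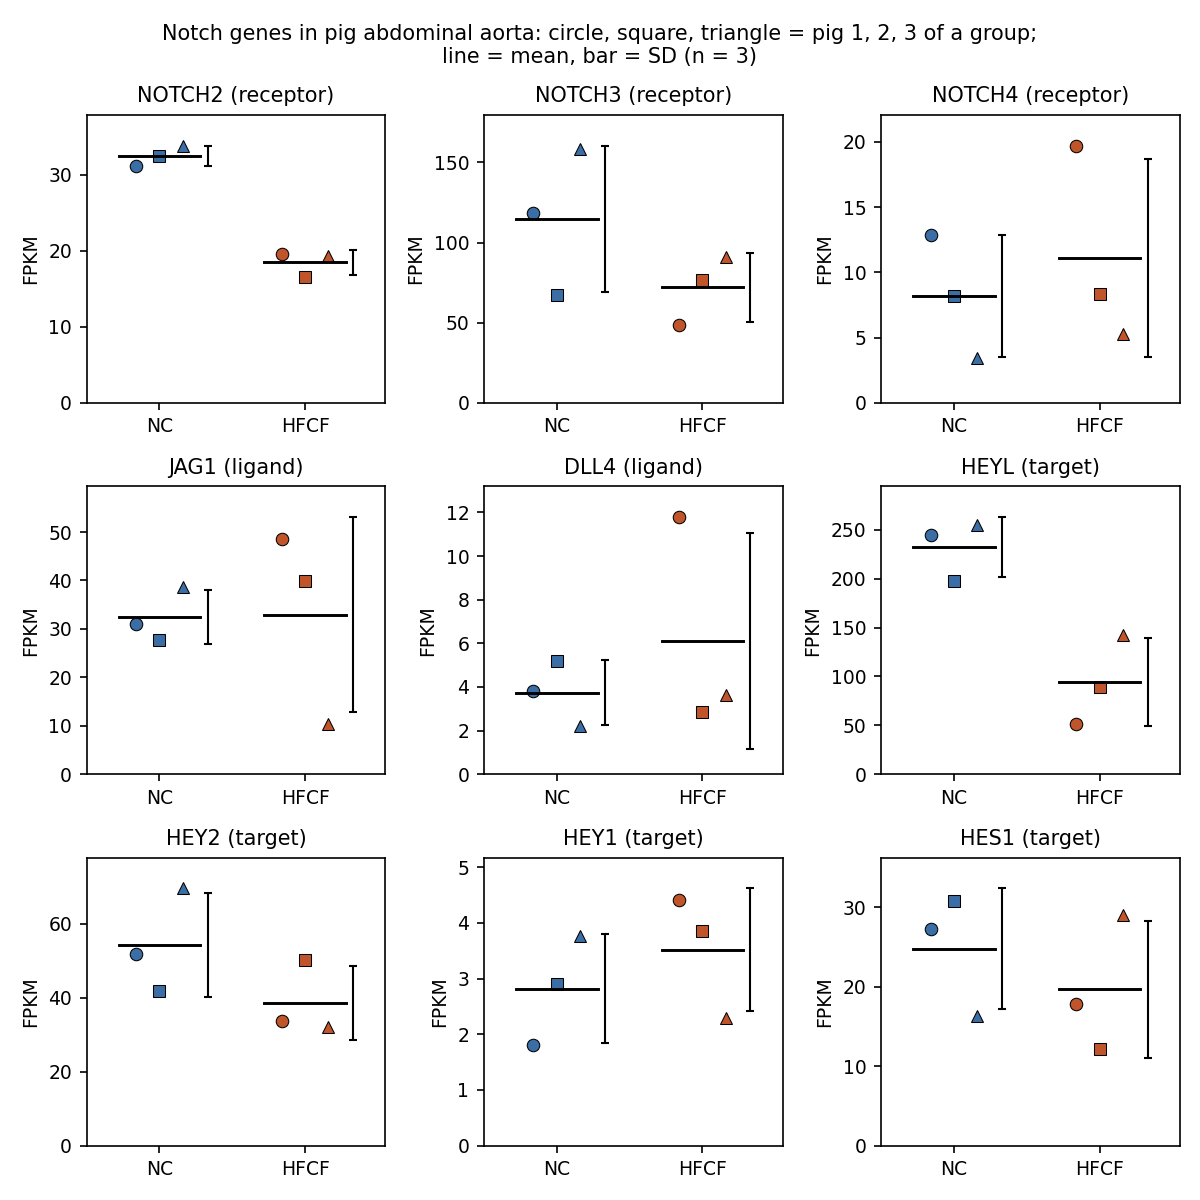
FPKM of the 9 Notch genes (vertical axes, linear and starting at 0) in 3 NC pigs (blue) and 3 HFCF pigs (orange), with circles, squares and triangles for pigs 1, 2 and 3 of a group, lines for means and bars for SD. NOTCH2 lies between 31.2 and 33.8 FPKM in the NC pigs and between 16.5 and 19.6 FPKM in the HFCF pigs, and HEYL is the other gene without overlap.

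Among the receptors, NOTCH2 (ENSSSCG00000006709) was measured at 31.2, 32.4 and 33.8 FPKM in NC pigs 1, 2 and 3 and at 19.6, 16.5 and 19.3 FPKM in HFCF pigs 1, 2 and 3. Every HFCF pig was lower than every NC pig, and the spread within each group was small. The group means were 32.5 ± 1.32 and 18.5 ± 1.67 FPKM (SD, n = 3 each). On the log2 scale this was a change of -0.81 (standard error 0.13, 95% interval -1.13 to -0.50, adjusted p = 0.0063, limma). The change lay -1.14 from the median of all genes. NOTCH2 kept an adjusted p under 0.05 in limma in all 15 alternatives, which included leaving out each pig in turn, 3 other scalings and other pseudocounts and filters, with log2 fold changes of -1.17 to -0.74.

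NOTCH3 (ENSSSCG00000025176), the receptor best known from smooth muscle and pericytes, was measured at 119, 67.3 and 158 FPKM in the NC pigs and at 48.5, 76.6 and 91.0 FPKM in the HFCF pigs. The groups overlapped because NC pig 2 was lower than HFCF pigs 2 and 3. The log2 fold change was -0.63 with a 95% interval from -1.48 to 0.21 (adjusted p = 0.223, limma), which includes both a fall and a rise. It was negative in all 15 alternatives, but its size rested on the scaling and on single pigs. With median-ratio scaling it was -0.99 (95% interval -1.87 to -0.11, adjusted p = 0.0912, limma). With TPM values it was -0.89 (95% interval -1.78 to -0.014, adjusted p = 0.122, limma). Both intervals lay below 0, and neither value passed after adjustment. With the deposited values it was -0.98 without NC pig 2, -0.36 without NC pig 3 and -0.37 without HFCF pig 1. The adjusted p-values were 0.0753, 0.498 and 0.491 (limma).

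NOTCH4 (ENSSSCG00000001440), a receptor of endothelial cells, was measured at 12.9, 8.21 and 3.47 FPKM in the NC pigs and at 19.7, 8.33 and 5.30 FPKM in the HFCF pigs. The spread inside each group was larger than the difference between them. Its log2 fold change was 0.41 (95% interval -0.9987 to 1.82, adjusted p = 0.637, limma), and it turned to -0.10 without NC pig 3 and to -0.11 without HFCF pig 1. The 3 receptors together summed to 163, 108 and 196 FPKM in the NC pigs and to 87.8, 102 and 116 FPKM in the HFCF pigs, which overlapped.

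**Figure D2:**
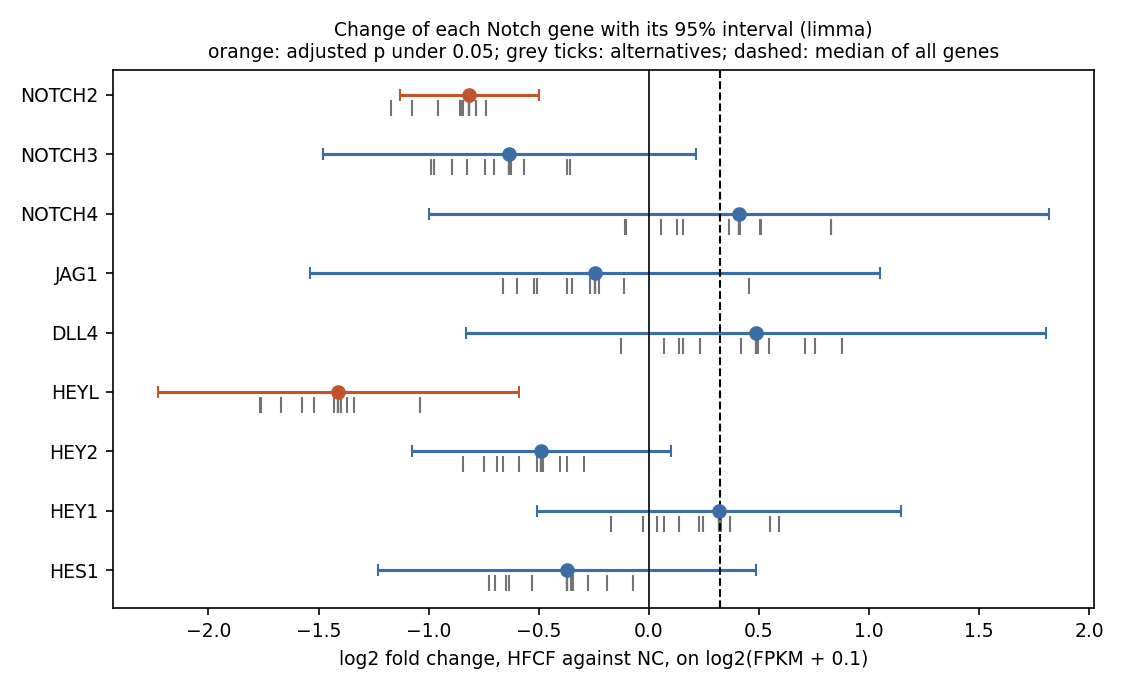
Log2 fold change of each Notch gene, HFCF against NC, on log2(FPKM + 0.1), with its 95% interval from limma; grey ticks below each point are the 15 alternatives and the dashed line is the median of all genes at 0.32. The intervals of NOTCH2 (-1.13 to -0.50) and HEYL (-2.23 to -0.59) lie below 0, and those of the other 7 genes include 0.

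Neither ligand passed the test. JAG1 (ENSSSCG00000007067), the Jagged ligand of endothelium and smooth muscle, was measured at 31.1, 27.8 and 38.6 FPKM in the NC pigs and at 48.6, 40.0 and 10.3 FPKM in the HFCF pigs. The HFCF pigs enclosed the NC pigs, with 2 above all of them and HFCF pig 3 below all of them. The group means were 32.5 ± 5.54 and 32.97 ± 20.1 FPKM (SD, n = 3 each), and the log2 fold change was -0.24 (95% interval -1.54 to 1.05, adjusted p = 0.767, limma). Its sign rests on HFCF pig 3, since it was 0.45 without that pig.

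DLL4 (ENSSSCG00000004755), the Delta-like ligand of arterial endothelium, was measured at 3.84, 5.18 and 2.19 FPKM in the NC pigs and at 11.8, 2.86 and 3.62 FPKM in the HFCF pigs. HFCF pig 1 alone was above the NC range. For DLL4 the log2 fold change was 0.49 (95% interval -0.83 to 1.80, adjusted p = 0.545, limma) and -0.13 without HFCF pig 1. In the same pig NOTCH4 and JAG1 also had their highest values of the 6 pigs. The summed ligand level was 32.97 to 40.8 FPKM in the NC pigs and 60.4, 42.9 and 13.9 FPKM in HFCF pigs 1, 2 and 3. The ratio of summed ligands to summed receptors was 0.243 ± 0.0543 in the NC group and 0.41 ± 0.284 in the HFCF group (SD, n = 3 each), and HFCF pig 3 lay below the NC pigs while the other HFCF pigs lay above them.

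Among the targets, HEYL (ENSSSCG00000038956), a repressor of the HEY family known from vascular smooth muscle, fell the most of the 9 genes with the deposited values. It was measured at 244, 198 and 255 FPKM in the NC pigs and at 51.8, 89.1 and 142 FPKM in the HFCF pigs. All HFCF pigs were below all NC pigs, with HFCF pig 1 lowest and HFCF pig 3 closest to the NC group. The group means were 232 ± 30.6 and 94.3 ± 45.3 FPKM (SD, n = 3 each), and the HFCF mean was 0.406 of the NC mean. The log2 fold change was -1.41 (standard error 0.35, 95% interval -2.23 to -0.59, adjusted p = 0.024, limma), which lay -1.73 from the median of all genes. The call held in 11 of 15 alternatives, with log2 fold changes of -1.77 to -1.04, and was lost in the other 4, each of which left out 1 pig. The adjusted p from limma was 0.0878 without NC pig 1, 0.0532 without NC pig 2, 0.0699 without NC pig 3 and 0.0636 without HFCF pig 2. Without HFCF pig 1, the pig with the most macrophage and red blood cell transcripts, the log2 fold change was -1.04 (adjusted p = 0.0346, limma).

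HEY2 (ENSSSCG00000004223), a HEY repressor of arterial cells, was measured at 51.8, 41.7 and 69.5 FPKM in the NC pigs and at 33.6, 50.2 and 32.1 FPKM in the HFCF pigs. Only HFCF pig 2 reached into the NC range. HEY2 had a log2 fold change of -0.49 (95% interval -1.08 to 0.10, adjusted p = 0.182, limma). It was negative in all 15 alternatives, and it passed in 1 of them, median-ratio scaling, with an adjusted p of 0.047 (limma). Without NC pig 3 it was -0.30 (adjusted p = 0.414, limma).

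HEY1 (ENSSSCG00000006159), the HEY repressor with the lowest level here, was measured at 1.80, 2.90 and 3.76 FPKM in the NC pigs and at 4.41, 3.86 and 2.29 FPKM in the HFCF pigs. HFCF pigs 1 and 2 were above all NC pigs and HFCF pig 3 was inside their range. HEY1 had a log2 fold change of 0.32 (95% interval -0.51 to 1.15, adjusted p = 0.527, limma), equal to the median of all genes to 2 decimals. It was -0.03 after median-ratio scaling and -0.17 after quantile normalization. Leaving out 1 pig moved it to 0.04 without NC pig 1, 0.13 without HFCF pig 1, 0.55 without NC pig 3 and 0.59 without HFCF pig 3.

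HES1 (ENSSSCG00000031356), the repressor of the HES family that many signals besides Notch can induce, was measured at 27.3, 30.8 and 16.3 FPKM in the NC pigs and at 17.8, 12.1 and 29.1 FPKM in the HFCF pigs. The groups overlapped, with NC pig 3 among the low pigs and HFCF pig 3 among the high ones. The log2 fold change was -0.37 (95% interval -1.23 to 0.49, adjusted p = 0.476, limma). It lay nearer 0 without NC pig 2 (-0.19) and without HFCF pig 2 (-0.07), and farther from 0 without NC pig 3 (-0.65) and without HFCF pig 3 (-0.70). The summed level of the 4 targets was 273 to 345 FPKM in the NC pigs and 108 to 205 FPKM in the HFCF pigs without overlap, and HEYL was the largest of the 4 in every pig.

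The order of the levels over all 6 pigs began with HEYL at a mean of 163 FPKM, followed by NOTCH3 at 93.4, HEY2 at 46.5, JAG1 at 32.7, NOTCH2 at 25.5, HES1 at 22.2, NOTCH4 at 9.65, DLL4 at 4.91 and HEY1 at 3.17 FPKM. HEYL was above NOTCH3, NOTCH3 above HEY2, and NOTCH4 above DLL4 in 6 of 6 pigs. The middle of the order was not separated. JAG1 was above NOTCH2 in 3 of 6 pigs and DLL4 above HEY1 in 4 of 6, while HEY2 exceeded JAG1, NOTCH2 exceeded HES1, and HES1 exceeded NOTCH4 in 5 of 6.

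The share of each gene in the summed FPKM of its role does not move with the scaling of a library, and it was compared in 8 shares with an exact two-sided permutation test, whose smallest possible p with 3 pigs against 3 is 0.1. HEYL made up 75.1%, 72.4% and 74.0% of the target transcripts in NC pigs 1, 2 and 3, while HFCF pigs 1, 2 and 3 had 48.1%, 57.4% and 69.1%. All HFCF shares were below all NC shares (73.9% ± 1.37 and 58.2% ± 10.5, SD, n = 3 each; exact p = 0.1, adjusted p = 0.4 over the 8 shares). HEY1 made up 0.902% ± 0.302 in the NC group and 2.56% ± 1.49 in the HFCF group (exact p = 0.1, adjusted p = 0.4), and the nearest pigs of the 2 groups were NC pig 3 at 1.09% and HFCF pig 3 at 1.11%.

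HEY2 took 17.1% ± 2.65 of the target transcripts in the NC group and 26.4% ± 9.32 in the HFCF group, with HFCF pig 3 at 15.6% inside the NC range (exact p = 0.3, n = 3 each). Against the geometric mean of the 4 targets, the difference in HEY2 was -0.000766 on the log2 scale. HES1 took 8.13% ± 3.29 and 12.8% ± 4.51 (exact p = 0.3, n = 3 each).

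NOTCH3 was the main receptor transcript in every pig, with 62.3% to 80.9% of the 3 receptors in the NC pigs and 55.2% to 78.7% in the HFCF pigs (exact permutation p = 0.8, adjusted p = 0.8). NOTCH2 took 17.3% to 30.0% in the NC pigs and 16.3% to 22.3% in the HFCF pigs (exact permutation p = 0.5), so its share was not separated although its level was. NOTCH4 took 22.5% in HFCF pig 1 and 1.77% to 8.20% in the other 5 pigs (exact permutation p = 0.4). JAG1 made up 89.3% ± 5.17 of the 2 ligands in the NC group and 82.6% ± 9.86 in the HFCF group (exact permutation p = 0.4, n = 3 each).

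**Figure D3:**
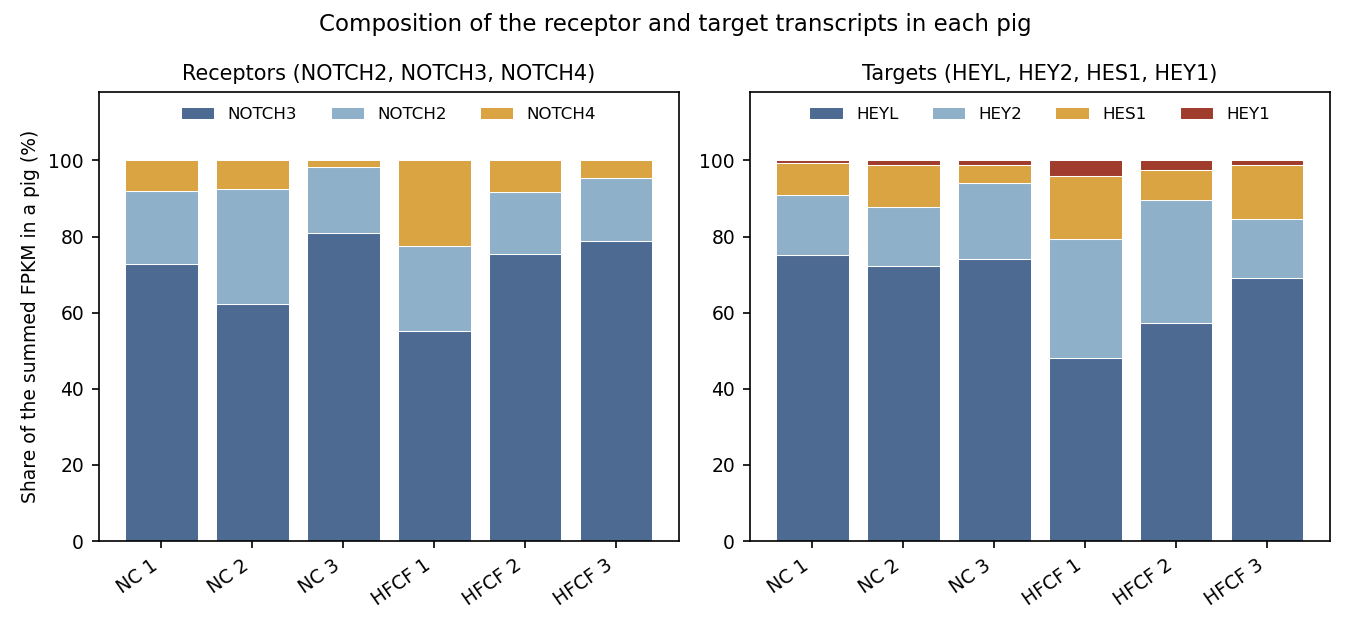
Share of the summed FPKM (vertical axis, percent) of 3 receptors (left) and 4 targets (right) in each of the 6 pigs. The lowest segment of the right panel, HEYL, is 72.4% to 75.1% in the NC pigs and 48.1% to 69.1% in the HFCF pigs, while NOTCH3, the lowest segment of the left panel, overlaps between the groups.

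The labelled tissue was checked against markers of the cells that an aorta sample can hold. The contractile smooth muscle list had ACTA2 and TAGLN, a smooth muscle actin and an actin-binding protein, as its most abundant genes. Of its 9 genes, 5 fell and 1 rose in the HFCF group (adjusted p under 0.05, limma), with a median log2 fold change of -0.98 and a summed level of 15323 to 21540 FPKM in the NC pigs and 7837 to 12605 FPKM in the HFCF pigs. TAGLN was not called (adjusted p = 0.201, limma). Named after their values were seen, CALD1 rose by 0.69 and MYOCD fell the most, by 2.72 (adjusted p = 0.013 and 0.00543, limma). A mean log2 level over the list weighs each gene equally, MYOCD included. The endothelium list had ESAM and PECAM1, both adhesion molecules of endothelial junctions, as its most abundant genes. Of its 11 genes, 1 fell, ESAM, and 0 rose at an adjusted p under 0.05 (limma). At an unadjusted p under 0.05, 3 passed, and they were split in direction. ESAM was lower in the HFCF group, while TEK and KDR, named after their values were seen, were higher. Their log2 fold changes were 1.18 and 0.88 (adjusted p = 0.0541 and 0.111, limma). The summed level of the endothelium list, 272 to 396 FPKM in the NC pigs, overlapped with 197 to 381 FPKM in the HFCF pigs. All 9 macrophage genes rose, with C1QB (a subunit of complement C1q) and TYROBP (a signalling adaptor of myeloid cells) most abundant, and the summed level was 45.4 to 48.4 FPKM in the NC pigs and 535 to 1282 FPKM in the HFCF pigs.

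The 5 pericyte markers had a mean log2 level of 5.31 ± 0.12 in the NC group and 4.65 ± 0.24 in the HFCF group (SD, n = 3 each) without overlap, while their summed level of 568 to 1056 FPKM in the NC pigs overlapped with 396 to 617 FPKM in the HFCF pigs. Of the 5 genes, 1 passed and fell. In the other lists, 1 of 6 fibroblast genes, 1 of 5 T cell genes, 1 of 4 B cell genes and 1 of 2 neutrophil genes rose, and 0 of 5 adipocyte, 0 of 3 red blood cell, 0 of 2 skeletal muscle and 0 of 4 Schwann cell genes passed in limma. At an unadjusted p under 0.05, these last 4 lists held 0, 0, 1 and 1 genes. The fibroblast, T cell, B cell and neutrophil lists held 1, 4, 2 and 1. Of all tested genes, 22.8% rose at the adjusted threshold. Summed T cell markers were 0.732 to 0.906 FPKM in the NC pigs and 2.41 to 10.02 FPKM in the HFCF pigs. For B cells the sums were 6.74 to 11.2 and 35.6 to 47.3 FPKM, and for neutrophils 0.166 to 0.380 and 4.55 to 67 FPKM. These sums did not overlap, while those of fibroblasts did. The neutrophil marker S100A8 was listed at 0 in all NC pigs and in HFCF pig 3.

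NOTCH3, HEY2 and HEYL were set against the mean log2 level of the 9 smooth muscle markers in the same pig, and NOTCH4, DLL4 and HEY1 against that of the 11 endothelium markers. The marker mean of smooth muscle was 9.27 ± 0.19 in the NC group and 8.32 ± 0.33 in the HFCF group on the log2 scale, without overlap, and that of endothelium was 4.01 ± 0.37 and 4.06 ± 0.63 (SD, n = 3 each). HEYL lay at -1.52, -1.64 and -1.09 against smooth muscle in the NC pigs and at -2.26, -1.94 and -1.45 in the HFCF pigs. On this relative scale HFCF pig 3 was inside the NC range. The difference was -0.46 (exact permutation p = 0.3, adjusted p = 0.6 over 6 genes). The SD was 0.29 in the NC group and 0.41 in the HFCF group (n = 3 each). NOTCH3 differed by 0.31 (exact permutation p = 0.6) and HEY2 by 0.46 (exact permutation p = 0.2), both in the opposite direction to their own levels.

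Relative to endothelium, NOTCH4 differed by 0.35, DLL4 by 0.43 and HEY1 by 0.26 on the log2 scale, with exact permutation p-values of 0.5, 0.4 and 0.6, and the groups overlapped in each. All 6 adjusted p-values were 0.6, and the smallest p this design allows is 0.1. NOTCH2 had not been assigned to a list and was added after its values were seen. It lay at -4.24 ± 0.24 against smooth muscle in the NC group and -4.11 ± 0.39 in the HFCF group (SD, n = 3 each), which overlapped, and its difference from endothelium was -0.87, also with overlap. The part of smooth muscle, pericyte, macrophage and other cell content in the falls of NOTCH2 and HEYL was not tested beyond these values.

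**Figure D4:**
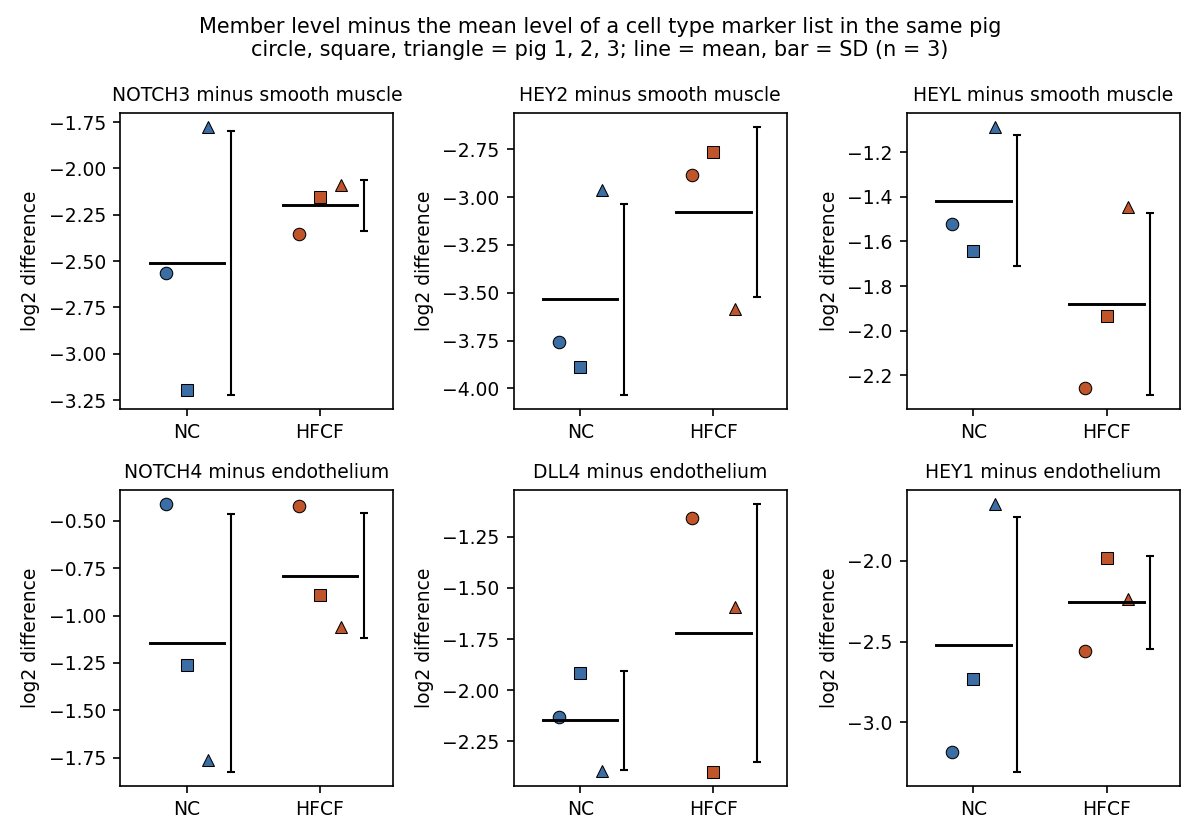
Log2 level of 6 Notch genes minus the mean log2 level of a marker list in the same pig (vertical axes, log2 difference), for 3 NC pigs (blue) and 3 HFCF pigs (orange), with lines for means and bars for SD. The groups overlap in all 6 panels, HEYL included, where HFCF pig 3 at -1.45 lies between the NC pigs.

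The rest of the pathway was read from a list of 55 genes, of which 52 were found and 48 tested. Of these, 9 rose and 3 fell in the HFCF group (adjusted p under 0.05, limma), that is 25.0% against 28.9% of all tested genes, and the median log2 fold change was 0.19, below the 0.32 of all genes. This balance moved with the scaling. It was 4 higher and 11 lower with median-ratio scaling, 5 and 8 with quantile normalization, and 5 and 6 with TPM values. Of the other ligands only DLL1 was tested, and its difference of -1.04 on the log2 scale did not pass (adjusted p = 0.172, limma). Of 4 other HES and feedback genes 0 passed, also at an unadjusted p under 0.05. JAG2, NRARP and NUMBL were not analysed here, and DLL3, DLK1, DLK2 and HES5 were under the filter.

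Among the genes that act on the receptors, ADAM10, the metalloproteinase that makes the first activating cut, rose from 0.925, 1.22 and 0.859 FPKM in the NC pigs to 5.54, 3.49 and 3.87 FPKM in the HFCF pigs. All HFCF pigs were above all NC pigs. The rise of 1.99 on the log2 scale (standard error 0.26, adjusted p = 0.00311, limma) was called in all 15 alternatives. PSEN2, a catalytic subunit of gamma-secretase, rose by 0.84 on the log2 scale (adjusted p = 0.0358, limma) but was not called in 10 alternatives (adjusted p up to 0.2), and the other 5 gamma-secretase genes did not pass. Of the 6 enzymes that attach or extend sugars on Notch receptors, 0 passed in limma, also at an unadjusted p under 0.05. MIB1, a ubiquitin ligase needed for ligand uptake, rose by 0.70 (adjusted p = 0.0469, limma) and was called in 4 of 15 alternatives (adjusted p up to 0.674).

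In the nuclear complex, RBPJ, the DNA-binding partner of all Notch receptors, rose from 0.851, 1.09 and 0.451 FPKM in the NC pigs to 5.11, 3.92 and 1.91 FPKM in the HFCF pigs. The groups did not overlap, and the log2 fold change was 2.03 (standard error 0.44, adjusted p = 0.0162, limma). Its call was lost without NC pig 1 and without HFCF pig 2, with an adjusted p of at most 0.0552 (limma). SNW1, a splicing factor and cofactor of RBPJ, had 26.1 ± 1.404 FPKM on normal chow and 16.3 ± 0.399 FPKM on the HFCF diet (SD, n = 3 each). The change of -0.67 on the log2 scale (adjusted p = 0.00961, limma) held in all 15 alternatives. The remaining called genes of this group, named after their values were seen, were the coactivator MAML3, which fell by 0.95 (adjusted p = 0.0217, limma), and the acetyltransferase KAT2B, which rose by 0.85 (adjusted p = 0.0255, limma). Of the corepressors, CIR1 rose by 0.95 (adjusted p = 0.0366, limma). The calls of MAML3, KAT2B and CIR1 held in 10, 6 and 6 of 15 alternatives, with adjusted p-values up to 0.0787, 0.128 and 0.13 (limma).

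In the group of receptor inhibition and turnover, 3 of 8 tested genes rose and 0 fell, where 22.8% of all tested genes rose. The 3 genes are Deltex ubiquitin ligases, while the Deltex genes DTX1 (0.76 on the log2 scale, adjusted p = 0.137, limma) and DTX2 (0.21, adjusted p = 0.598, limma), named after their values were seen, did not pass. DTX4 rose from 0.810, 1.03 and 0.669 FPKM in the NC pigs to 6.63, 2.91 and 3.32 FPKM in the HFCF pigs, which is 2.15 on the log2 scale (adjusted p = 0.0063, limma). DTX3L had 0.646 ± 0.212 FPKM on normal chow and 2.69 ± 0.273 FPKM on the HFCF diet (SD, n = 3 each), and its rise was 1.94 on the log2 scale (adjusted p = 0.00503, limma). Both kept their call in all 15 alternatives. DTX3 had 19.96 ± 3.42 and 36.5 ± 2.29 FPKM (SD, n = 3 each). Its rise was 0.88 on the log2 scale (adjusted p = 0.00912, limma), and median-ratio scaling was the 1 alternative without a call (adjusted p = 0.05002, limma). RBPJ, ADAM10, DTX4, DTX3L and DTX3 were all highest in HFCF pig 1, the pig with the highest summed macrophage markers, and the part of macrophage content in these rises was not tested.

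**Figure D5:**
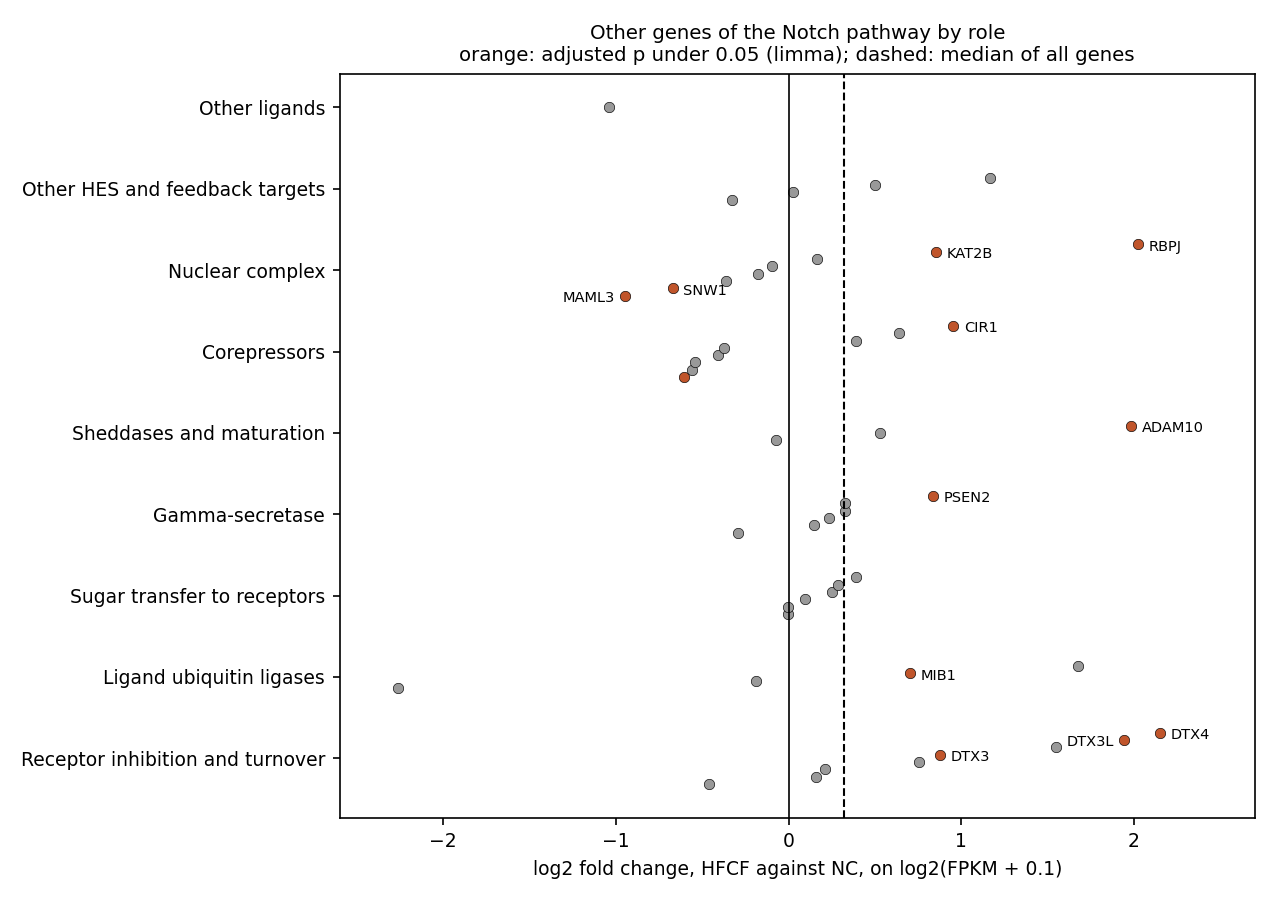
Log2 fold change, HFCF against NC, on log2(FPKM + 0.1), of the 48 tested genes of the wider Notch pathway, grouped by role on the vertical axis; orange points had an adjusted p under 0.05 in limma and the dashed line is the median of all genes at 0.32. The largest rises are those of DTX4 (2.15), RBPJ (2.03), ADAM10 (1.99) and DTX3L (1.94), and MAML3 and SNW1 are among the called falls.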

How the data were processed

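RNA from the abdominal aorta of 6 pigs was sequenced as paired-end reads, 1 library per pig. The authors deposited FPKM values, made by trimming with cutadapt 1.9, alignment with HISAT2 to the pig genome (an earlier build than the reference table at hand, so no coordinates are given) and assembly with StringTie. Read depths are not given, so no counting interval is printed. A value of 0.0001 was read as 0. Values were analysed as log2(FPKM + 0.1) for genes with a mean of at least 0.1 FPKM, with limma 3.58.1 in R 4.3.3 (diet as the only factor, variance trend, two-sided, Benjamini-Hochberg adjustment). The fit was run on simulated data with independent noise and no shift between libraries, so that check does not cover the scaling. A fold change on this scale understates that of low genes. Shares and levels relative to marker lists were compared with exact permutation tests in scipy 1.17.1, which cover 8 shares and 6 genes because NOTCH1 was not analysed here. The 12 marker lists and the pathway list were written down by role. Genes, lists and tests were chosen with earlier results of these data known. Named were all members, per pathway group the called gene with the largest change, the 6 pathway genes with the lowest adjusted p, the 2 most abundant genes of each marker list (printed for the 3 lists discussed) and the 3 genes most like NOTCH3, DLL4 and HES1, of which 1 is not reported here. Alternatives were pseudocounts of 1 and 0.01, no filter, a mean of at least 1 FPKM, 3 scalings, no trend, a block by replicate number, each pig left out and the thresholds of the study.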

Additional observations from a re-analysis of the deposited data

How the results depend on the processing

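Of the 9 genes, 2 were called with the deposited values and 1 by the thresholds of the study, and leaving out each pig gave 1 to 2. The wider pathway list had 12 calls, 6 by the thresholds of the study and 6 to 11 with each pig left out, and all tested genes had 4453 calls and 2399 to 3562 with each pig left out. With a replicate block these counts were 2772 for all genes and 7 for the pathway list, and the block changed no call among the 9 Notch genes. Deviations of same-numbered pigs from their group means correlated at 0.02, -0.08 and -0.07. Taken from means of 3 pigs, these values cannot decide whether same-numbered pigs were related or handled together. HEY1 turned to -0.026 with median-ratio scaling and -0.17 with quantile normalization. NOTCH3 moved to -0.99 with median-ratio scaling, -0.74 with quantile normalization and -0.89 with TPM values. With each pig left out, log2 fold changes lay between -0.11 and 0.83 for NOTCH4, -0.66 and 0.45 for JAG1, -0.13 and 0.88 for DLL4, -0.98 and -0.36 for NOTCH3, -0.69 and -0.30 for HEY2, 0.04 and 0.59 for HEY1, and -0.70 and -0.07 for HES1. The difference in share lay between -6.18 and 0.203 percentage points for NOTCH2 and -7.11 and 5.05 for NOTCH3, the HEY2 share difference became -0.000766 as a log2 ratio to the geometric mean, and levels relative to markers lay between -0.0301 and 0.68 for NOTCH3 and -0.0685 and 0.70 for HEY1. The cause of these changes was not tested. With 3 pigs per group and the deposited values, intervals of 7 of the 9 genes span 0.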

Other observations

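For NOTCH3, DLL4 and HES1, the genes with the most similar pattern were sought among 9581 uniquely named genes with a mean of at least 1 FPKM, by Pearson's r of log2(FPKM + 0.1) over the 6 pigs. The points share 2 diet groups, and the best of so many genes is high by selection, so these values are a description. NOTCH3 was most like PLEKHF1 (r = 0.988), COL15A1, a collagen of basement membrane zones (r = 0.974), and MTFR1L (r = 0.973). Like NOTCH3, COL15A1 was highest in NC pig 3 (175 FPKM) and lowest in HFCF pig 1 (87.0 FPKM), with NC pig 2 at 117 FPKM. DLL4 was most like TUBA4A (r = 0.992), MMRN2, an endothelial matrix glycoprotein (r = 0.986), and ASTE1 (r = 0.980). MMRN2 had 20.4 FPKM in HFCF pig 1 and 3.34 to 8.05 FPKM in the other 5 pigs. HES1 was most like AGTR1, the angiotensin II receptor of vascular smooth muscle (r = 0.990), and CITED1 (r = 0.984). AGTR1 had 2.67, 3.02 and 1.02 FPKM in the NC pigs and 1.53, 0.730 and 3.04 FPKM in the HFCF pigs, so its groups overlapped as those of HES1 did.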
